A study of Mus musculus with 12 samples.

Results

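The genes described here are the chemokine ligands and their receptors of the mouse, chosen by gene name as the rows of the deposited count table called *Ccl*, *Cxcl*, *Ccr* or *Cxcr* with a number, and the 8 genes *Cx3cl1*, *Cx3cr1*, *Xcl1*, *Xcr1* and *Ackr1* to *Ackr4*. The rule found 67 of the 55536 rows of the table, with 62 different names, of which 45 rows were ligands and 22 were receptors. Chemokines are small secreted proteins that steer the movement of leukocytes by binding G protein-coupled receptors on their surface. Inflammatory chemokines are made on demand by macrophages, endothelium and stroma, whereas homeostatic chemokines are made constantly and place lymphocytes within lymphoid organs. Atypical receptors bind chemokines without classical G protein signaling and remove or transport them, which shapes the local supply of ligand.

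Thyroids of 12 mice were sequenced, with 1 library per mouse, to compare mice carrying the thyroid dysplasia phenotype with mice of wild type phenotype. The 5 affected mice (replicates 1, 3, 4, 5 and 6, TCW) were C57BL/6 from Taconic (B6NTac), the colony in which the study describes a LINE-1 element in the thyroglobulin gene *Tg*. The 7 unaffected mice were 6 C57BL/6 mice from Charles River (B6NCrl, replicates 21 to 26, CRW) and 1 unaffected knockout animal from Taconic (replicate 14, TCK). No treatment is given for either group, and the age, sex, batch and *Tg* genotype of the single mice, as well as the gene deleted in replicate 14, are not given in the sources used here. Apart from replicate 14, every mouse of a phenotype came from a single colony, so an effect of colony and an effect of the phenotype cannot be told apart. Total counts per library were 20170500 to 23319948 in affected mice and 11434901 to 22401136 in unaffected mice, with the lowest total in replicate 14. *Tg* was the most abundant thyroid follicular marker, with a mean of 25812 FPKM (fragments scaled to transcript length and library size) over the 12 mice.

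Some of the libraries stood apart from the rest by markers of lymphoid tissue, airway or other tissues. *Rag1*, which recombines antigen receptor genes in developing lymphocytes, was at 69.6 FPKM in unaffected replicate 14, 42.0 FPKM in unaffected replicate 21 and 2.19 FPKM in affected replicate 3, and at 0.0836 FPKM or less in the other 9 libraries. The summed level of the 8 thymocyte markers was 224.1 FPKM and 155.3 FPKM in unaffected replicates 14 and 21, and 4.27 to 18.0 FPKM in the other libraries. *Glycam1*, a ligand of L-selectin made by lymph node venules, was at 211.4 FPKM in affected replicate 1 and at 0.410 FPKM or less elsewhere. The same library had the highest sums of adipocyte markers (2573 FPKM, and 307.1 to 908.0 FPKM elsewhere) and of pericyte and smooth muscle markers. Affected replicate 3 also held 1282 FPKM of the airway secretory gene *Bpifa1*, which was at 76.9 FPKM or less elsewhere. The summed level of the 12 thyroid follicular markers was 14515 FPKM in affected replicate 1 and 14021 FPKM in affected replicate 6, and 25005 to 35851 FPKM in the other libraries. The comparisons below are therefore given with all mice and, where a call or the direction changed, without the libraries with *Rag1* above 1 FPKM (4 affected and 5 unaffected mice left) or without affected replicate 1.

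After the filter on low counts, 35 of the 67 rows were tested, namely 21 ligands and 14 receptors, and 5 of them passed the adjusted p of 0.05 in edgeR's quasi-likelihood test of affected against unaffected mice. This was 14.3% of the tested members, near the 13.7% of all 19661 tested genes (2699 genes) that passed. *Ccl6*, *Ccl9*, *Ackr3* and *Ackr2* were higher in affected mice, which was 11.4% of the tested members beside 7.63% of all tested genes. *Cxcl12* was lower, which was 2.86% of the tested members beside 6.1% of all tested genes. Affected and unaffected mice did not overlap for 3 members (8.57%), beside 7.14% of all tested genes. The median log2 fold change was 0.23 over the tested members and 0.01 over all tested genes. Among all genes called, 55.6% were higher, but 26.1% were higher when libraries were scaled to their totals without *Tg* and 43.2% with upper-quartile factors. Without *Tg* the median of all genes moved to -0.13, and the same 5 members passed under both of these scalings. Without the libraries with *Rag1* above 1 FPKM, 6 of 34 tested members passed (17.6%) beside 6.23% of all tested genes. Of these 6, *Ackr3*, *Ccl6* and *Ccl9* had passed with all mice and *Cxcr4*, *Ccl22* and *Ccl24* had not, while *Cxcl12* and *Ackr2* no longer passed. *Ccl22* and *Ccl24* entered this fit only through the affected mice, so the share of 17.6% rests partly on members that give no support for a difference.

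**Figure D1:**
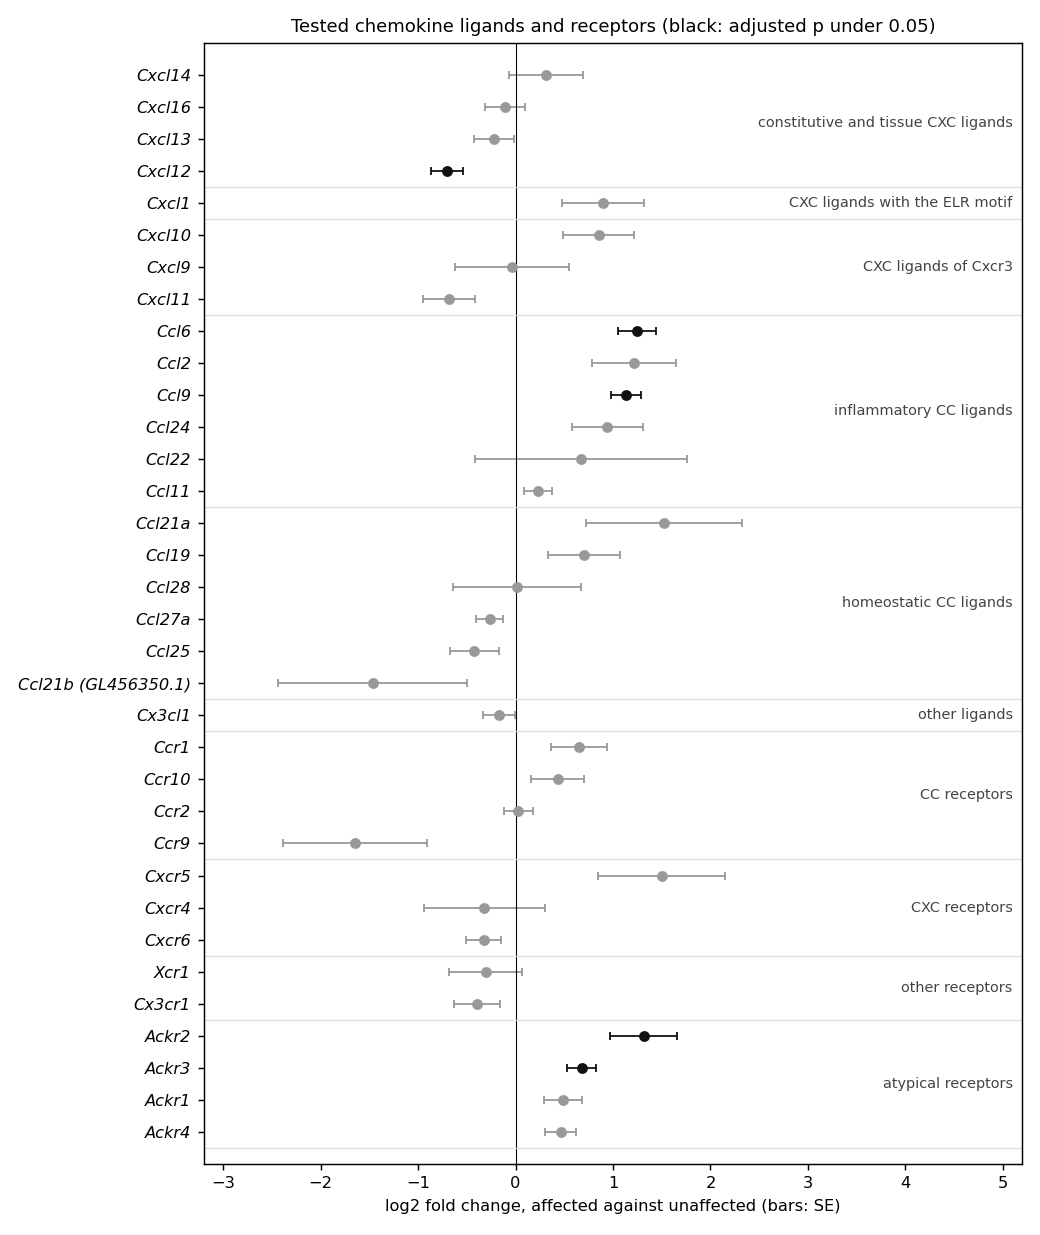
Log2 fold change of affected against unaffected mice (x axis, points, with the SE as bars) for 34 of the 35 tested chemokine ligands and receptors, grouped by role, with members past the adjusted p of 0.05 in black. *Ccl6*, *Ccl9*, *Ackr3* and *Ackr2* lie above 0 and *Cxcl12* below 0, and the widest bars belong to genes such as *Ccl22*, *Ccl21b* and *Ccl21a*, which were high in single libraries or share sequence with a copy.

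Levels differed widely between the members when compared per length. The most abundant ligands were *Cxcl12*, with 35.3 FPKM ± 13.4 (SD, n = 12), and *Cxcl13*, with 24.4 FPKM ± 5.96 (SD, n = 12). They were followed by *Ccl21a* at 12.9 FPKM ± 21.5 (SD, n = 12) and *Ccl25* at 12.6 FPKM ± 9.63 (SD, n = 12). The large SD came from affected replicate 1 for *Ccl21a* (79.4 FPKM). For *Ccl25* it came from unaffected replicates 21 (39.9 FPKM) and 14 (22.9 FPKM). The means of *Ccl21a* and *Ccl25* do not separate from *Cx3cl1* (10.7 FPKM) and *Ccl11* (10.3 FPKM) beyond their spread. The most abundant receptors were *Ackr3* (5.50 FPKM ± 1.93), *Ccr9* (4.93 FPKM ± 7.20), *Cxcr4* (4.54 FPKM ± 4.11) and *Ccr2* (3.63 FPKM ± 0.651), with SDs over 12 mice, and their order was within the spread between mice. Of the tested members, 6 had a mean above 10 FPKM, all of them ligands, and 15 had a mean below 1 FPKM. Below, levels of a gene in single mice are given in CPM (counts scaled to library size with TMM factors), which compare mice and not genes.

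*Cxcl12* is the constitutive stromal chemokine that holds leukocytes and progenitors in tissues through *Cxcr4*, and *Ackr3* is the atypical receptor that takes up *Cxcl12* and *Cxcl11*. *Cxcl12* (chromosome 6, 117168535 to 117181367) was at 104 CPM in affected replicate 1 and at 55.9, 76.4, 60.7 and 67.2 CPM in affected replicates 3, 4, 5 and 6, against a lowest, median and highest of 94.8, 121.0 and 150.1 CPM in unaffected mice. Affected replicate 1 thus lay among the unaffected mice and the other 4 affected mice lay below all of them. The group means were 72.8 CPM ± 18.9 (SD, n = 5) and 118.6 CPM ± 21.3 (SD, n = 7), and *Cxcl12* fell by 0.70 on the log2 scale (SE 0.17, edgeR adjusted p = 0.0152; exact two-sided permutation test, p = 0.00505). Without the libraries with *Rag1* above 1 FPKM, which left affected replicate 1 in, the log2 fold change was -0.59 and no longer passed (edgeR adjusted p = 0.0991, with 0.000775 to 0.0991 over all its alternatives). When only affected replicate 1 was left out, it was -0.87 (edgeR adjusted p = 0.00227). In bulk tissue, fewer cells of a type and less RNA per cell cannot be told apart.

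*Ackr3* (chromosome 1, 90203980 to 90216751) moved the other way. It was at 28.6, 15.5, 17.2, 17.4 and 20.9 CPM in affected replicates 1, 3, 4, 5 and 6, and between 9.60 and 14.8 CPM (median 12.8) in unaffected mice. Every affected mouse was above every unaffected mouse, with affected replicate 1 the highest. The log2 fold change was 0.68 (SE 0.15, edgeR adjusted p = 0.0107; exact permutation test, p = 0.00126, the smallest p that 5 mice against 7 allow). *Ackr3* was at 0.67 on the log2 scale without the libraries with *Rag1* above 1 FPKM, and it passed (edgeR adjusted p = 0.0349), but the call was lost with limma on log2(FPKM + 1) without a filter (0.51, adjusted p = 0.0642).

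The signaling receptor *Cxcr4* did not pass with all mice, and its direction depended on the libraries with thymocyte markers. It was at 9.58, 7.08, 5.42, 6.27 and 4.80 CPM in affected replicates 1, 3, 4, 5 and 6, and at 2.46 to 24.0 CPM (median 3.76) in unaffected mice. The high unaffected values were those of replicates 14 (24.0 CPM) and 21 (18.2 CPM), and the other 5 unaffected mice, at 4.21 CPM or less, were below every affected mouse in CPM. In FPKM, affected replicate 6 (2.39 FPKM) lay below unaffected replicate 22 (2.67 FPKM). With all mice the log2 fold change was -0.32 (SE 0.62, edgeR adjusted p = 0.778; exact permutation test, p = 0.725). It was 0.99 without the libraries with *Rag1* above 1 FPKM (edgeR adjusted p = 0.0373), with adjusted p between 0.0373 and 0.998 over all alternatives. *Cxcl11*, an interferon-induced ligand of *Cxcr3* that *Ackr3* also binds, ranged from 0.391 to 1.09 CPM in affected and from 0.681 to 1.34 CPM in unaffected mice, with a log2 fold change of -0.68 that did not pass (edgeR adjusted p = 0.110). It passed without affected replicate 1, the highest affected mouse for *Cxcl11* (-0.97, edgeR adjusted p = 0.0235).

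*Ccl6* and *Ccl9* are CC chemokines of rodents made by macrophages and other myeloid cells that attract myeloid cells through *Ccr1*. *Ccl6* (chromosome 11, 83587882 to 83593087, minus strand) was at 18.7, 12.5, 8.99, 13.5 and 13.9 CPM in affected replicates 1, 3, 4, 5 and 6, and between 4.04 and 7.98 CPM (median 5.40) in unaffected mice. *Ccl9* (chromosome 11, 83572919 to 83578636, minus strand) was at 11.8, 10.6, 11.2, 9.64 and 8.94 CPM in the same mice, and between 3.69 and 7.29 CPM (median 4.34) in unaffected mice. For both genes every affected mouse was above every unaffected mouse in CPM, while the FPKM values of *Ccl6* overlapped slightly, and unaffected replicate 21 was the highest of the unaffected mice.

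*Ccl6* rose by 1.25 on the log2 scale (SE 0.19, edgeR adjusted p = 0.00149) and *Ccl9* by 1.14 (SE 0.15, edgeR adjusted p = 0.000584), each with the smallest possible p of 0.00126 in the exact permutation test. Both passed in all 23 alternative fits, with log2 fold changes from 1.03 to 1.45 for *Ccl6* and from 0.82 to 1.27 for *Ccl9*. Their receptor *Ccr1* ranged from 0.864 to 1.78 CPM in affected and from 0.370 to 1.32 CPM in unaffected mice, and its log2 fold change of 0.65 did not pass (SE 0.29, edgeR adjusted p = 0.157; exact permutation test, p = 0.0467).

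**Figure D2:**
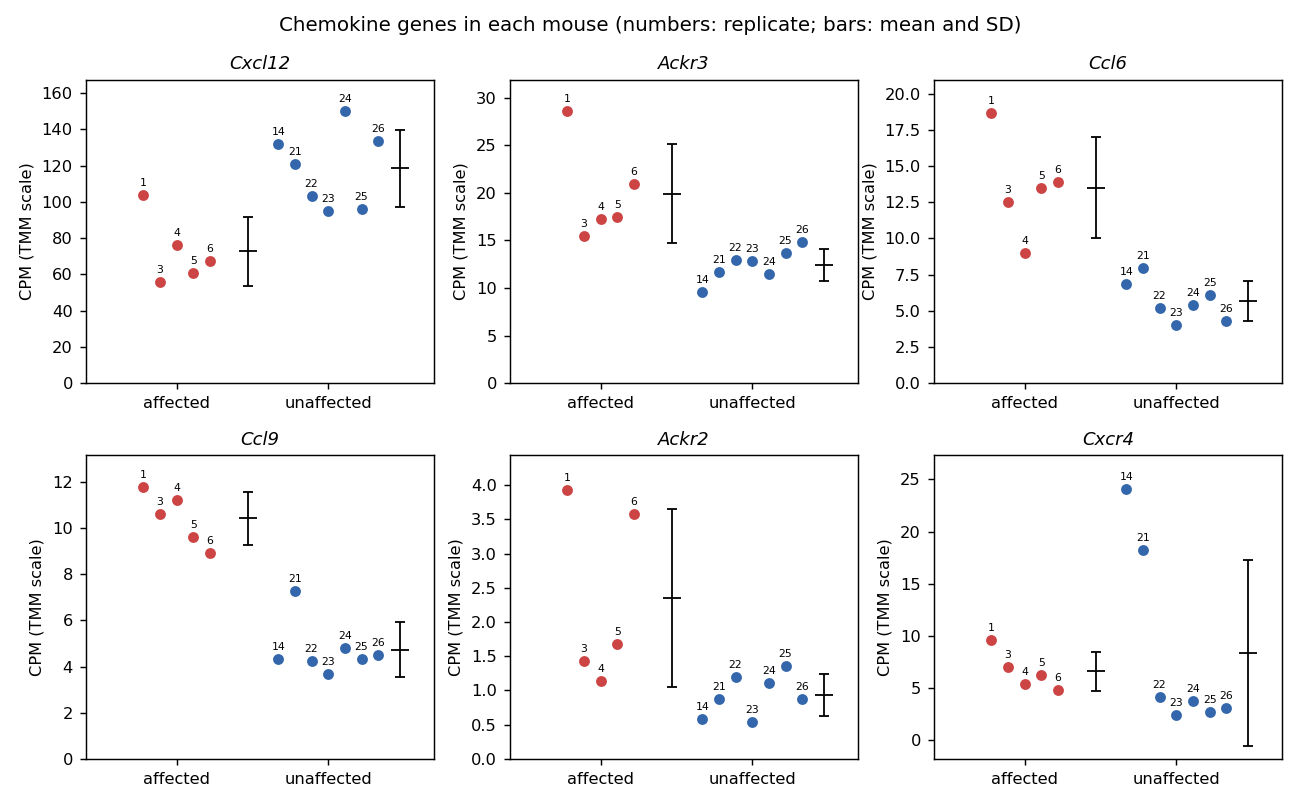
Level in CPM (y axis) of the 5 members past the threshold and of *Cxcr4* in each affected (red) and unaffected (blue) mouse, numbered by replicate, with the mean and SD of each group as black bars. *Ackr3*, *Ccl6* and *Ccl9* do not overlap between groups, affected replicate 1 is the exception for *Cxcl12*, and unaffected replicates 14 and 21 are the exceptions for *Cxcr4*.

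Macrophage markers are given beside *Ccl6* and *Ccl9*. Of the 12 macrophage markers, all tested, 6 were higher in affected mice and 0 lower, beside 7.63% higher and 6.1% lower over all tested genes. Their median log2 fold change was 0.72, beside 0.01 over all genes. Their summed level was 175.2, 105.8, 98.0, 114.4 and 89.7 FPKM in affected replicates 1, 3, 4, 5 and 6, 87.4 and 116.2 FPKM in unaffected replicates 14 and 21, and 48.8 to 65.6 FPKM in the other unaffected mice. The groups overlapped in FPKM through unaffected replicate 21, and as a share of FPKM totals also through unaffected replicate 14 (0.0181%, with 0.0173% in affected replicate 6). Unaffected replicate 21 was the library that was also highest for *Ccl6* and *Ccl9* among unaffected mice. Of the markers that passed, the largest changes were those of *Lyve1* (1.61), *Folr2* (1.05), *Cd68* (0.98) and *Cd163* (0.91), as log2 fold changes with edgeR adjusted p of 0.00330, 0.0160, 0.0101 and 0.000952. The most abundant marker was the complement gene *C1qa* (mean 14.8 FPKM), which was not among the genes that passed, and no macrophage marker was at 0 in every mouse. The part of macrophage number in the change of *Ccl6* and *Ccl9* was not tested.

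*Ccl6* and *Ccl9* are neighbors, with 9245 bp between them on chromosome 11, which holds 14 member rows in separate places, of which 6 were tested. RefSeq promoters were found for 45 of the 62 names. Because both *Ccl6* and *Ccl9* rose, the 250 bases before their transcription starts are shown, as RefSeq gives them for GRCm38.p6, 5′ to 3′ on the minus strand, at chr11:83593088-83593337 for *Ccl6* and chr11:83578637-83578886 for *Ccl9*. Capitals mark the stretches of at least 10 bases that occur in both.
Ccl6: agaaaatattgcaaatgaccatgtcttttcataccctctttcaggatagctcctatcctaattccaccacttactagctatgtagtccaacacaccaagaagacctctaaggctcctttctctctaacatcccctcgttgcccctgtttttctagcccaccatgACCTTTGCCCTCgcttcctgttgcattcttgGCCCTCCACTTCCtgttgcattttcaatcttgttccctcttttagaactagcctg
Ccl9: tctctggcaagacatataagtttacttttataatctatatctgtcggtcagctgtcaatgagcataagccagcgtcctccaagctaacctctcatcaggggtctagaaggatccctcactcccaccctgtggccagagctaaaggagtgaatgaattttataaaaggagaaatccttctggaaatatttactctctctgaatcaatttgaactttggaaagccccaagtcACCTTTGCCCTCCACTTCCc
The stretch ACCTTTGCCCTC (12 bases) lies 86 to 75 bases before the start in *Ccl6* and 20 to 9 bases before it in *Ccl9*, and GCCCTCCACTTCC (13 bases) lies 55 to 43 and 14 to 2 bases before it. The stretches are separate in *Ccl6* and overlap in *Ccl9*. Among the same windows of 32851 promoters, searched on both strands, 4 hold the first stretch and 5 hold the second. Of 7 motifs searched on both strands, *Ccl6* held none and *Ccl9* held matches to the NF-kB motif (GGG and CC with 5 bases of any kind between them), found in 45.8% of all promoters, the AP-1 motif TGANTCA, found in 6.75%, and the TATA box TATAAA, found in 12.4%. The interferon response element (GAAA, 2 bases of any kind and GAAA; 2.98% of promoters), the PU.1 motif GAGGAAGT (2.44%), the amino acid response element TGATGNAAT (0.816%) and the hypoxia response element ACGTG (16.6%) were in neither window. These matches describe the sequence only.

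The atypical receptor *Ackr2* takes up and degrades many inflammatory CC chemokines and is known for its place on lymphatic endothelium. *Ackr2* (chromosome 9, 121898355 to 121911074) was at 3.94, 1.43, 1.14, 1.69 and 3.59 CPM in affected replicates 1, 3, 4, 5 and 6, and between 0.541 and 1.36 CPM (median 0.881) in unaffected mice. Affected replicates 1 and 6 were far above the rest, and affected replicate 4 lay within the unaffected range. The same 2 mice had the lowest thyroid follicular sums and the highest fibroblast sums, and were highest for *Ackr3*, and the part of these tissues in *Ackr2* and *Ackr3* was not tested. *Ackr2* rose by 1.31 on the log2 scale (SE 0.35, edgeR adjusted p = 0.0251; exact permutation test, p = 0.00505). *Ackr2* had only 7 to 90 counts per library, and the call was lost without affected replicate 1 (log2 fold change 1.05, edgeR adjusted p = 0.0673), without affected replicate 6 (1.13, edgeR adjusted p = 0.0565), without unaffected replicate 26 (1.30, edgeR adjusted p = 0.0502) and without the libraries set apart by *Rag1* (1.34, edgeR adjusted p = 0.0839). It was also lost with limma on log2(FPKM + 1), with and without a filter (0.39 in both, adjusted p = 0.118 and 0.204), and on log2(FPKM + 0.1) (0.91, adjusted p = 0.111). Over all its alternatives the adjusted p ran from 0.00516 to 0.204.

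The atypical receptors *Ackr4* and *Ackr1* were above 0 on the log2 scale but did not pass in the fit to all mice. *Ackr4*, which takes up *Ccl19*, *Ccl21a* and *Ccl25*, had a log2 fold change of 0.46 (edgeR adjusted p = 0.0751) and passed with DESeq2 (0.47, adjusted p = 0.0377) and without affected replicate 4 (0.56, edgeR adjusted p = 0.0372), and *Ackr1*, which carries inflammatory chemokines on venules and red blood cells, had 0.49 (edgeR adjusted p = 0.125). All 4 atypical receptors were tested, with a median of 0.58. *Ackr4* overlaps exons of *Acad11* on the opposite strand and *Ackr1* overlaps exons of *Cadm3* on its own strand, so the counts of both are uncertain. In GENCODE M21 none of the 5 members past the threshold overlaps an exon of another gene, but the deposited table marks *Ccl6* as confounded, and *Ccl6* lies within the span of *E230016K23Rik* on the opposite strand, so its counts carry that uncertainty. The mark stands on 19 member rows, among them *Ccl2*, *Ccl19*, *Cxcl11*, *Ccr10*, *Cxcr6* and *Cx3cr1*, whose counts are uncertain in the same way. Of the 7 lymphatic endothelial markers, a list that holds *Ccl21a*, 2 were higher (*Lyve1* and *Mmrn1*, the latter by 0.76, edgeR adjusted p = 0.0245) and 0 were lower. Over all tested genes 7.63% were higher and 6.1% lower. *Lyve1* is also on the macrophage list. The other lymphatic markers did not pass, with log2 fold changes of -0.0006 for *Prox1*, -0.005 for *Flt4*, 0.17 for *Pdpn*, 0.63 for *Reln* and 1.52 for *Ccl21a*. The sums were 20.9 to 117.0 FPKM in affected and 18.1 to 34.0 FPKM in unaffected mice. The highest sum was that of affected replicate 1, where *Ccl21a* alone was at 79.4 FPKM. The part of lymphatic endothelium in the change of *Ackr2* was not tested.

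The other inflammatory CC ligands did not pass. *Ccl2*, the monocyte chemoattractant and ligand of *Ccr2*, was at 0.438 to 1.705 CPM in affected and 0.106 to 0.668 CPM in unaffected mice (log2 fold change 1.22, edgeR adjusted p = 0.0793). *Ccl11*, the eotaxin that attracts eosinophils through *Ccr3*, was at 9.38 to 14.3 CPM and 7.35 to 13.02 CPM (0.23, edgeR adjusted p = 0.315). *Ccl22*, which attracts regulatory T cells through *Ccr4*, was at 0.821 to 2.76 CPM and 0 to 6.17 CPM (0.67, edgeR adjusted p = 0.733). The sixth tested inflammatory CC ligand, *Ccl24*, another eotaxin, had a log2 fold change of 0.94 (edgeR adjusted p = 0.107). The groups overlapped for all 4 of these genes. *Ccl24* passed without the libraries with *Rag1* above 1 FPKM and without unaffected replicate 21 alone. It had 3 to 12 counts in the unaffected libraries left in either fit. *Ccl24* entered both fits only through the affected mice, so these calls are no support for a difference. With all mice it passed in limma on log2(FPKM + 1) (0.55, adjusted p = 0.0340), but not on log2(FPKM + 0.1). *Ccl22* had at most 5 counts in any unaffected library left in the fit without the libraries with *Rag1* above 1 FPKM. It entered that fit only through the affected mice, and its call there is no support for a difference. The median of the 6 tested inflammatory CC ligands was 1.04, beside 0.01 over all tested genes, and 10 more members of that role were not tested. That median rests partly on members with few counts in unaffected mice. There *Ccl2* had 2 to 11 counts, and *Ccl22* had at most 5 outside replicates 14 and 21.

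Among the homeostatic and tissue ligands, the B cell attractant *Cxcl13* was at 30.3, 25.5, 36.3, 15.3 and 21.0 CPM in affected replicates 1, 3, 4, 5 and 6 and at 20.3 to 38.2 CPM (median 28.4) in unaffected mice. The groups overlapped, with affected replicate 5 the lowest mouse, and the log2 fold change of -0.22 did not pass (SE 0.20, edgeR adjusted p = 0.512; exact permutation test, p = 0.295). *Ccl21a*, the lymphatic and lymph node ligand of *Ccr7*, was at 62.9 CPM in affected replicate 1, at 11.4, 2.89, 4.15 and 5.13 CPM in affected replicates 3 to 6 and at 1.82 to 15.4 CPM (median 4.26) in unaffected mice. Apart from replicate 1 the groups overlapped. The log2 fold change was 1.52 (SE 0.80, edgeR adjusted p = 0.235; exact permutation test, p = 0.343), was 2.06 without the libraries with *Rag1* above 1 FPKM (edgeR adjusted p = 0.255) and became -0.03 without affected replicate 1 (edgeR adjusted p = 0.984, the highest over its alternatives, which began at 0.142). The annotated *Ccl21a* transcript and the *Ccl21b* transcript of chromosome 4 differ at 2 of 402 aligned bases, so counts of the *Ccl21* rows could be split among copies and are uncertain. The *Ccl21b* row on an unplaced scaffold, at 0 to 1.62 CPM, was tested as well (-1.47, edgeR adjusted p = 0.348).

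*Ccl25*, the thymic and intestinal ligand of *Ccr9*, was at 18.7, 23.0, 20.4, 17.9 and 16.4 CPM in affected replicates 1, 3, 4, 5 and 6 and at 17.3 to 50.2 CPM (median 21.0) in unaffected mice. The high values were 32.3 CPM in unaffected replicate 14 and 50.2 CPM in unaffected replicate 21, the libraries with the most *Rag1*. With all mice the log2 fold change was -0.42 (SE 0.25, edgeR adjusted p = 0.297; exact permutation test, p = 0.253) and -0.11 without the libraries with *Rag1* above 1 FPKM (edgeR adjusted p = 0.525, with 0.202 to 0.694 over its alternatives). *Ccl25* overlaps exons of *Elavl1* on the opposite strand, and its counts are uncertain because no source used here tells if reads were assigned by strand.

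The remaining tested ligands did not pass. The transmembrane chemokine *Cx3cl1* had a log2 fold change of -0.17 and the scavenger receptor chemokine *Cxcl16* one of -0.11. The epithelial chemokine *Cxcl14* had 0.31, the skin chemokine *Ccl27a* -0.27, the mucosal chemokine *Ccl28* 0.01 and the lymph node chemokine *Ccl19* 0.70. Of the interferon-induced ligands of *Cxcr3*, *Cxcl10* had 0.85 and *Cxcl9* -0.04 (SE 0.59), and the neutrophil chemokine *Cxcl1* had 0.90. Their edgeR adjusted p lay between 0.140 for *Cxcl10* and 0.992 for *Ccl28*. Without the libraries with *Rag1* above 1 FPKM the direction turned for *Ccl28* (-1.23, edgeR adjusted p = 0.250) and *Cxcl9* (0.44, edgeR adjusted p = 0.718), as log2 fold changes. *Cxcl10* overlaps exons of *Art3*, *Ccl27a* exons of *Il11ra1* and *Cxcl16* exons of *Zmynd15*, each on the opposite strand, and *Ccl27a* differs from *Ccl27b* at 3 of 405 aligned bases.

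Among the signaling receptors, *Ccr9*, which brings T cell precursors to *Ccl25* in the thymus, was at 7.83, 13.1, 8.89, 4.24 and 9.60 CPM in affected replicates 1, 3, 4, 5 and 6 and at 7.63 to 74.4 CPM (median 9.30) in unaffected mice. Unaffected replicates 14 (71.8 CPM) and 21 (74.4 CPM) were far above the other 10 mice, and among those 10 the highest affected mouse was replicate 3, which held 2.19 FPKM of *Rag1*. The log2 fold change was -1.65 with all mice (SE 0.74, edgeR adjusted p = 0.166; exact permutation test, p = 0.230) and -0.28 without the libraries with *Rag1* above 1 FPKM (edgeR adjusted p = 0.4995, with 0.0835 to 0.625 over its alternatives). The 8 thymocyte markers, of which 3 were tested, gave 0 calls in either direction; *Rag1* was their most abundant gene (mean 9.49 FPKM), and their part in the values of *Ccr9*, *Ccl25* and *Cxcr4* was not tested. Exons of *Ccr9* overlap those of *Slc6a20a* and 2 low transcripts.

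*Cxcr5*, the B cell receptor for *Cxcl13*, was at 6.69 CPM in affected replicate 1, at 0.521, 0.672, 0.605 and 0.662 CPM in affected replicates 3, 4, 5 and 6 and at 0.344 to 0.878 CPM (median 0.624) in unaffected mice. Only affected replicate 1, the library with *Glycam1*, stood out. The log2 fold change was 1.50 (SE 0.65, edgeR adjusted p = 0.147; exact permutation test, p = 0.365) and became -0.08 without that mouse (edgeR adjusted p = 0.868, the highest over its alternatives, which began at 0.0963). The 7 B cell markers used, 3 of them tested with 0 calls, summed to 50.8 FPKM in affected replicate 1, 2.44 to 3.75 FPKM in the other affected mice and 6.09 to 9.18 FPKM in unaffected mice, with *Cd79b* the most abundant (mean 4.02 FPKM). *Cxcr5* also overlaps exons of *Bcl9l* on the opposite strand.

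**Figure D3:**
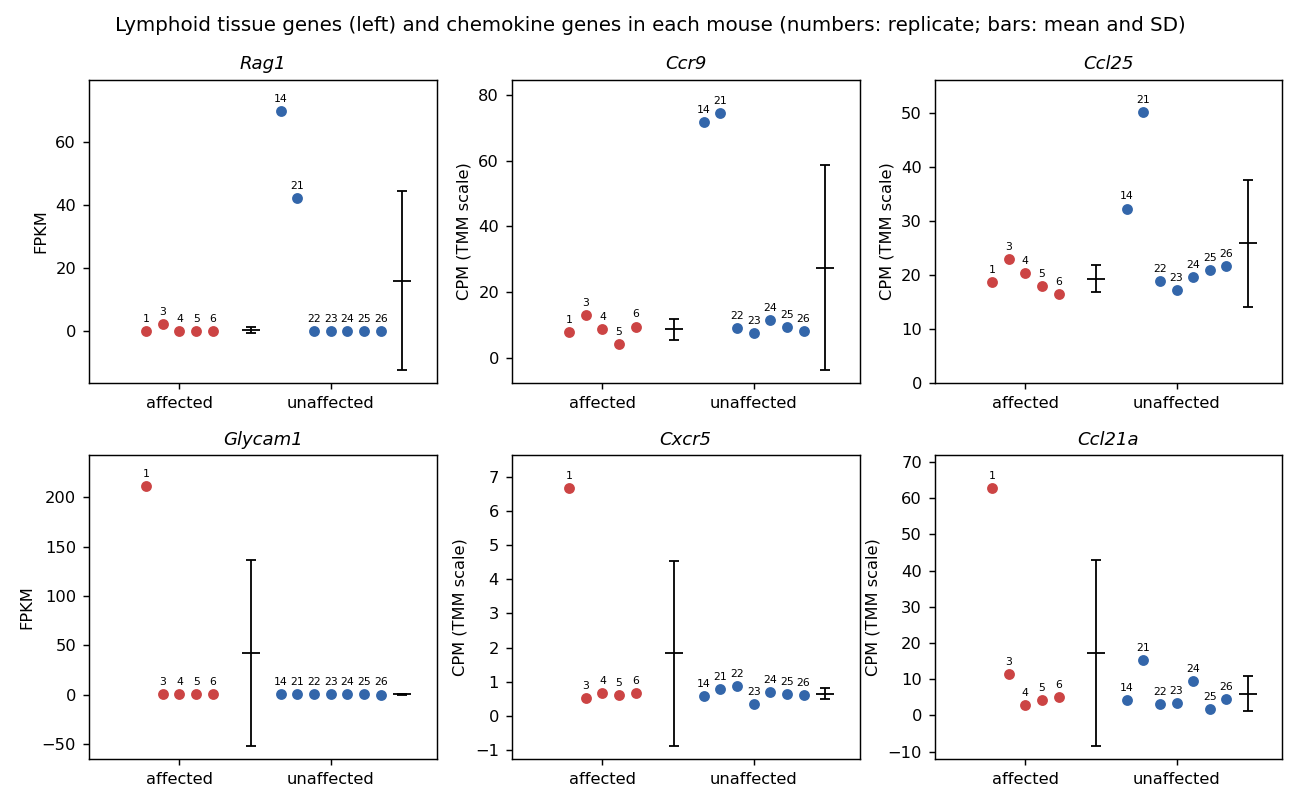
Level of the thymocyte gene *Rag1* and the lymph node venule gene *Glycam1* in FPKM and of *Ccr9*, *Ccl25*, *Cxcr5* and *Ccl21a* in CPM (y axes) in each affected (red) and unaffected (blue) mouse, numbered by replicate, with the mean and SD of each group as black bars. Unaffected replicates 14 and 21 are highest for *Rag1*, *Ccr9* and *Ccl25*, and affected replicate 1 is highest for *Glycam1*, *Cxcr5* and *Ccl21a*.

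*Ccr2*, the receptor of inflammatory monocytes for *Ccl2*, was at 12.7, 11.98, 16.6, 11.5 and 14.0 CPM in affected replicates 1, 3, 4, 5 and 6 and at 9.15 to 17.7 CPM (median 13.2) in unaffected mice. The affected mice lay inside the unaffected range, with a log2 fold change of 0.03 (SE 0.15, edgeR adjusted p = 0.924; exact permutation test, p = 0.784). The other receptors described here did not pass either. *Ccr10*, the receptor for *Ccl27a* and *Ccl28*, had a log2 fold change of 0.43. *Cxcr6*, the receptor for *Cxcl16*, had -0.33, *Cx3cr1*, the receptor for *Cx3cl1*, -0.40 and *Xcr1*, found on cross-presenting dendritic cells, -0.31. Their edgeR adjusted p lay between 0.243 for *Cxcr6* and 0.636 for *Xcr1*, whose log2 fold change was 0.07 without the libraries with *Rag1* above 1 FPKM (edgeR adjusted p = 0.931).

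The 32 rows that were not tested were low in all or most libraries. Of these, 8 had no count in any mouse after rounding, namely *Ccl26*, *Ccl27b*, the chromosome 4 row of *Ccl21b*, *Ccl21c*, and scaffold copies of *Ccl19*, *Ccl21a*, *Ccl21b* and *Ccl27*. The other 24 reached at most 8.27 CPM in any mouse, and 20 of them had their highest CPM in 1 of the 4 libraries named above as standing apart. In unaffected replicate 21 these were *Ccr7* (8.27 CPM), the receptor for *Ccl19* and *Ccl21a*, and *Ccr4* (3.08 CPM), *Ccl5* (2.35 CPM), *Ccl17*, *Ccr8*, *Ccr3* and *Ccl1*, and in unaffected replicate 14 they were *Xcl1*, *Ccl4* and *Cxcl3*. In affected replicate 3 they were the mucosal chemokine *Cxcl17* (3.47 CPM), *Cxcl5* (2.65 CPM), *Ccl7*, *Ccl20*, *Cxcl15* and *Ccl12*, and in affected replicate 1 they were *Ccl8* (2.10 CPM), *Cxcr2* (1.79 CPM), *Ccr6* (1.27 CPM) and *Cxcr3* (0.963 CPM). The remaining 4 were *Ccl3* and *Cxcl2*, highest in affected replicate 4, and *Cxcr1* and a scaffold copy of *Ccl27*, highest in unaffected replicate 23.

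Genes that work beside the chemokines were read from lists. Of 4 chemokine genes outside the name rule, 3 were tested and *Pf4*, the platelet chemokine, rose by 0.94 (edgeR adjusted p = 0.0163). Of 10 other chemoattractant receptors and ligands, 8 were tested, and 5 were higher and 0 lower, with a median log2 fold change of 0.71 beside 0.01 over all genes, of which 7.63% were higher. Macrophage markers moved the same way (6 of 12 higher), and their part in these receptors was not tested. The largest were the anaphylatoxin receptors *C5ar1* (1.19), *C3ar1* (0.87) and *C5ar2* (0.86) and the platelet activating factor receptor *Ptafr* (0.91), with edgeR adjusted p of 0.00205, 0.0120, 0.0469 and 0.0122. *C5ar2* was low, with a mean of 0.255 FPKM. For each of these genes the FPKM of the groups overlapped, while in CPM *C5ar1* and *C5ar2* did not overlap. The most abundant gene of that list, *S1pr1* (mean 14.0 FPKM), did not pass.

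Of 30 genes that signal below chemokine receptors, all tested, *Rac1* (0.29) and *Rap1a* (0.32) were higher and the arrestin *Arrb1* was lower (-0.41), with edgeR adjusted p of 0.00884, 0.00727 and 0.0184, and the median was 0.06. Of 24 NF-kB, interferon and cytokine genes that induce chemokines, 20 were tested, *Rela* (0.33) and *Stat3* (0.34) were higher and 0 were lower, and the median was -0.01. The counts of both lists stand beside 7.63% higher and 6.1% lower over all tested genes. Of 18 integrins and adhesion molecules of leukocyte entry, 16 were tested and 3 were higher, beside 7.63% of all tested genes, namely the endothelial selectin *Selp* (0.88), the myeloid integrin *Itgam* (0.73) and *Itgb1* (0.28). Of 7 enzymes that cut chemokines, 6 were tested and 2 were higher, the macrophage elastase *Mmp12* (2.34, edgeR adjusted p = 0.00154) and *Adam10* (0.27), again beside 7.63% of all tested genes. Of the macrophage markers 6 of 12 were higher, and their part in *Itgam* and *Mmp12* was not tested. Most abundant in these 4 lists were *Gnb2* (87.2 FPKM), *Nfkbia* (40.1 FPKM), *Itgb1* (94.7 FPKM) and *Adam10* (20.4 FPKM), as means over the 12 mice.

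Markers of other leukocytes were set beside the members as well, and their counts stand beside 7.63% higher and 6.1% lower over all tested genes. The 6 general leukocyte markers (0 calls) summed to 32.3 to 137.5 FPKM in affected and 33.8 to 197.3 FPKM in unaffected mice, with *Lcp1* the most abundant, and the 12 T cell markers (9 tested, 0 calls, most abundant *Thy1*) to 8.18 to 51.6 and 9.43 to 247.7 FPKM, with the highest unaffected values in replicates 14 and 21. Of 6 monocyte markers, which include *Ccr2*, only *F13a1*, the most abundant, was higher (1.02, edgeR adjusted p = 0.0370), and of 8 dendritic cell markers, which include *Xcr1*, only *Zbtb46*, the most abundant, was lower (-0.44, edgeR adjusted p = 0.0172). NK cell and eosinophil markers were near 0. The neutrophil gene *Ly6g* was at 0 FPKM in 11 of 12 mice and its list was led by *Ltf*, at 85.8 FPKM in affected replicate 3, the library with airway genes. The 6 NK cell markers summed to at most 3.65 FPKM (most abundant *Klrk1*) and the 5 eosinophil markers, which include *Ccr3*, to at most 0.491 FPKM (most abundant *Il5ra*). Plasma cell (6 markers, most abundant *Prdm1*), mast cell (7, *Kit*) and thymic epithelial (6, *Ctsl*) lists gave 0 calls.

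Stromal lists cover the usual sources of *Cxcl12*, and their counts stand beside 7.63% higher and 6.1% lower over all tested genes. Of 8 fibroblast markers, *Dpt* (0.74), *Dcn* (0.58) and *Pdgfra* (0.38) were higher and 0 were lower, with sums of 523.2, 315.5, 317.6, 311.6 and 425.3 FPKM in affected replicates 1, 3, 4, 5 and 6 and 205.3 to 296.6 FPKM in unaffected mice, and *Dcn* was the most abundant (mean 182.2 FPKM). FPKM totals were higher in every affected library, and as a share of them the fibroblast sums of the groups overlapped, at 0.0576% to 0.0929% in affected and 0.0477% to 0.0668% in unaffected mice. Of 8 blood endothelial markers, only *Kdr* passed and was lower (-0.60, edgeR adjusted p = 0.0413), while the median log2 fold change of the list was 0.16. Below 0 were also *Emcn* (-0.55) and *Plvap* (-0.09). Above 0 were *Pecam1* (0.31), *Vwf* (0.25), *Cdh5* (0.20), *Tek* (0.17) and *Esam* (0.15). The sums of 161.9 to 263.4 FPKM in affected and 190.0 to 257.0 FPKM in unaffected mice overlapped, with *Plvap* the most abundant. The 6 pericyte and smooth muscle markers gave 0 calls, with *Rgs5* the most abundant, and summed to 403.3 FPKM in affected replicate 1, the exception for *Cxcl12*, and to 101.6 to 197.3 FPKM in the other libraries. The part of these cells in the change of *Cxcl12* was not tested.

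Epithelial and other tissue markers varied between libraries, and their counts stand beside 7.63% higher and 6.1% lower over all tested genes. Of 12 thyroid follicular markers, *Slc26a4* was called higher and *Pax8* lower (-0.81, edgeR adjusted p = 0.0158). *Slc26a4* was at 0.177 to 1.13 FPKM in affected and 0 to 0.101 FPKM in unaffected mice. At such low levels in unaffected mice, it may have passed the filter on low counts only through the affected mice. Its call is therefore no support for a difference. Of 6 C cell markers *Ret* was lower (-0.80, edgeR adjusted p = 0.0377), with *Chga* the most abundant. *Chga* was at 8.62 FPKM in affected replicate 4 and at 1034 FPKM or more elsewhere, while the C cell hormone gene *Calca* was at 1168 FPKM in that library. The 3 parathyroid markers gave 0 calls, but the sum was 7.77 FPKM in affected replicate 4, where *Pth* was at 0.970 FPKM, and 2496 to 5067 FPKM in the other mice. Of 6 airway and oesophagus markers, *Scgb3a1* (6.60) and *Bpifa1* (5.04) were higher, a change led by affected replicate 3. Adipocyte (6 markers, most abundant *Fabp4*), skeletal muscle (6, *Acta1*) and erythrocyte (4, *Hbb-bs*) lists gave 0 calls, with skeletal muscle sums between 1.27 FPKM in unaffected replicate 26 and 10182 FPKM in affected replicate 6.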

How the data were processed

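According to the study's methods, total RNA of each thyroid was depleted of ribosomal RNA and sequenced on an Illumina NextSeq instrument, and reads were aligned and quantified in OmicSoft Array Studio against an Ensembl annotation. The deposited tables hold FPKM and estimated counts that carry no normalization. All 67 rows have the start and end of GENCODE M21 (GRCm38). Estimated counts were rounded, filtered with filterByExpr (minimum count 10), scaled with TMM, and edgeR 4.0.16 was used for the quasi-likelihood test (R 4.3.3), with Benjamini-Hochberg adjustment over 19661 genes and a threshold of 0.05. Exact permutation tests were two-sided, on log2 CPM (prior count 2), over 792 splits of 5 against 7 mice. FPKM totals per library were 503694 to 563447 in affected and 424287 to 483853 in unaffected mice, so FPKM compare genes and only coarsely compare mice. Genes given in full were the members past the threshold, the 4 most abundant ligands and receptors and the 3 largest changes not past it, with partners of the former, and from each list at most 4 called genes and the most abundant. Members and lists were chosen with earlier results of these data known. Alternatives used DESeq2 1.42.0, other scalings and filters, limma 3.58.1 on log2 FPKM, *Xist* as a covariate, B6NCrl controls only, and each mouse left out; the fit without libraries set apart by *Rag1* was chosen after seeing the data. 2 genes are not reported here. The edgeR step was tested on simulated data.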

Additional observations from a re-analysis of the deposited data

Results flagged for a closer look

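Of 24 groups of mice examined for the 12 members given in full, 3 held a mouse far from the others; chance alone puts about 1 in 20 groups there. *Ccl9* was at 7.29 CPM in unaffected replicate 21, against 4.82 CPM in the next highest unaffected mouse. *Ccl21a* was at 62.9 CPM in affected replicate 1, against 11.4 CPM in the next highest affected mouse. *Cxcr5* was at 6.69 CPM in affected replicate 1, against 0.672 CPM in the next highest affected mouse.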

How the results depend on the processing

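With all mice, 4 members were higher and 1 was lower. Members higher were 2 with limma on log2(FPKM + 1) without a filter, and 3 to 7 with each mouse left out, the 7 without unaffected replicate 21. Members lower were 1 to 2 with each mouse left out, with 2 without affected replicate 1 or affected replicate 4, and 0 without the libraries with *Rag1* above 1 FPKM. *Ccl6* and *Ccl9* passed in 23 of 23 distinct alternatives (the B6NCrl controls alone and leaving out unaffected replicate 14 are 1 fit). *Ackr3* and *Cxcl12* each passed in 22, and *Ackr2* in 15 of the 22 that gave it a value, all with the main direction. *Ackr3* was lost with limma on log2(FPKM + 1) without a filter (0.51, adjusted p = 0.0642). *Cxcr4* changed sign with only the B6NCrl controls (0.20), with limma on log2(FPKM + 1) (0.0752 with and without a filter) and log2(FPKM + 0.1) (0.18), without the libraries set apart by *Rag1* (0.99), and ranged from -0.49 to 0.20 with each mouse left out. *Ccr2* changed sign with totals without *Tg* (-0.12), upper-quartile factors (-0.0196), limma on log2(FPKM + 1) (-0.0069 with and without a filter) and log2(FPKM + 0.1) (-0.004), and ranged from -0.0464 to 0.117 with each mouse left out. *Ccl21a* ranged from -0.0284 to 1.97 with each mouse left out, and *Cxcr5* from -0.0833 to 1.74. Members that passed only in alternatives were *Ackr4*, *Ccl22*, *Ccl24*, *Cxcr4*, *Cxcl10* (without affected replicate 6 or unaffected replicate 21), *Cxcl11* (without affected replicate 1), *Cx3cr1* (without affected replicate 4) and *Cxcl17* (no filter, and limma on log2(FPKM + 0.1)). *Ccl22* and *Ccl24* entered the fits without the libraries set apart by *Rag1* or without unaffected replicate 21 only through the affected mice. *Cxcl17* had 0 to 7 counts in unaffected mice and entered the fit on log2(FPKM + 0.1) only through the affected mice. Its mean was 1.49 FPKM in affected and 0.130 FPKM in unaffected mice, with 4.74 FPKM in affected replicate 3. The calls of *Cxcl17* are no support for a difference. No paired analysis was possible because the groups share no replicate numbers. Low counts limit *Ackr2*, *Ccr1*, *Ccl2* and the untested members.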

Other observations

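2 ligands were picked out after their values were seen. *Ccl22* was at 0.821 to 2.76 CPM in the 4 affected mice left without the libraries with *Rag1* above 1 FPKM and at 0 to 0.284 CPM in the 5 unaffected mice left, and at 6.17 CPM in unaffected replicate 21 and 1.09 CPM in unaffected replicate 14. In that fit it passed the filter on low counts only through the affected mice, so no fold change or p is given for it. *Ccl24* was at 0.993 to 1.39 CPM in the affected and 0.159 to 0.681 CPM in the unaffected mice left in that fit. Unaffected replicate 21 was at 1.17 CPM. *Ccl24* entered that fit, and the fit without unaffected replicate 21 alone, only through the affected mice, so no fold change or p is given for either. With all mice its log2 fold change was 0.94 (edgeR adjusted p = 0.107). It passed with all mice in limma on log2(FPKM + 1) (0.55, adjusted p = 0.0340). It did not pass on log2(FPKM + 0.1), on log2(FPKM + 1) without a filter or with DESeq2.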
